A study of Mus musculus with 16 samples.

Results

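A set of 31 interferon-stimulated genes was followed in RNA-seq of mouse liver: the sensors Ifih1 and Ddx58, the transcription factors Irf7, Irf1, Irf9 and Stat2, the Ifit family (Ifit1, Ifit2, Ifit3), the ISG15 system (Isg15, Usp18), the oligoadenylate synthetase family (Oas1a, Oas2, Oasl1, Oasl2), the antiviral effectors Mx1, Mx2, Rsad2, Bst2, Xaf1 and Parp14, the interferon-inducible GTPases Gbp2, Gbp3, Gbp7, Igtp and Iigp1, the chemokines Cxcl9 and Cxcl10, and Ifi44, Ifi27 and Ifi35. The genes were chosen by symbol. All 31 were found among the 33730 genes of the count table, each in 1 row, and all 31 passed the filter on low counts that left 16206 genes for testing.

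The series compares livers of wild-type (WT) and Nrf2-null (KO) C57BL/6 mice, in 4 groups of 4 animals. WT DMSO mice received the solvent dimethyl sulfoxide at 1 µL/g and WT CDDO-Me mice received CDDO-Me at 3 mg/kg in DMSO, both into the peritoneum. The treatment protocol places the injections 24 h and 1 h before partial hepatectomy, whereas the series text gives 24 h between treatment and resection. CDDO-Me, also called bardoxolone methyl, is a synthetic triterpenoid that activates Nrf2, a transcription factor of the antioxidant response. KO untreated mice received no injection, and KO CDDO-Me mice received the drug as the WT mice did. All livers were taken on day 0, as the tissue removed at the operation, so no library comes from regenerating liver. In KO liver the drug, its solvent and the injection cannot be told apart, and in KO untreated against WT DMSO the genotype cannot be told apart from the solvent and the injection. The age and sex of the mice, the construction of the null allele and any batch are not stated in the labels. Each library carries its group name and the number from its title.

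Type I and type III interferons signal through a complex that holds Stat2 and Irf9 and binds the interferon-stimulated response element (ISRE), and the response to interferon gamma runs mainly through the gamma-activated site (GAS). Many of the genes they switch on, such as the Ifit and Oas genes, block viral replication, whereas Irf7, Stat2, Ifih1 and Ddx58 are also part of the pathway that induces or transmits interferon, and Usp18 dampens it. In liver, hepatocytes, Kupffer cells, endothelial cells and infiltrating leukocytes can all express these genes.

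The letters of these elements were looked up in the RefSeq promoter windows (build GRCm38.p6, 250 bases before to 50 after the start), which were available for 24 of the 31 genes as 28 windows. GAAANNGAAA, the core of the ISRE, was searched on both strands (TTTCNNTTTC on the other) and was found in 14 of the 28 windows, which belong to Ifit1, Ifit3, Isg15, Stat2, Oas1a, Rsad2, Ifih1, Ddx58, Gbp2, Gbp3, Gbp7, Igtp, Cxcl10 and Bst2. Of all 32851 windows, 3.44% held it. TTCNNNGAA, the GAS palindrome, reads the same on both strands and was in 7 of the 28 windows (Ifit2, Irf1, Oas1a, Gbp7, Igtp, Bst2 and Ifi35), against 8.30% of all windows. None of the windows printed here held both motifs. A match describes letters in a window and is not evidence of binding. The windows of 5 genes that the results below turn on are printed with their ISRE matches in capitals, together with Stat2, which held a match and whose level in WT DMSO 4 was near that of the other controls, and the upstream of the 2 Irf1 windows, with its GAS match in capitals. Sequences run 5′ to 3′ on the strand of the gene.

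Ifit1: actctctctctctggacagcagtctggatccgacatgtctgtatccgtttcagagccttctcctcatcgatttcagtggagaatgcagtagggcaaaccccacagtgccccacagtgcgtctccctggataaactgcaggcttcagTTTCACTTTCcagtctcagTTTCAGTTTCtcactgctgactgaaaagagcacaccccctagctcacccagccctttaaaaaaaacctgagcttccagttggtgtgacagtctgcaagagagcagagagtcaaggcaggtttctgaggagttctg
Ifit3: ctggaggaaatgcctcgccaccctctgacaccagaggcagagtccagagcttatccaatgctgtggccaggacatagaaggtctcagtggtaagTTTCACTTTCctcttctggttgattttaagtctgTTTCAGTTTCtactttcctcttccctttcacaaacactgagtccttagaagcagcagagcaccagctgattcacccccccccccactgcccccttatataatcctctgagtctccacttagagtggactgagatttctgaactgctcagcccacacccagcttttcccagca
Isg15: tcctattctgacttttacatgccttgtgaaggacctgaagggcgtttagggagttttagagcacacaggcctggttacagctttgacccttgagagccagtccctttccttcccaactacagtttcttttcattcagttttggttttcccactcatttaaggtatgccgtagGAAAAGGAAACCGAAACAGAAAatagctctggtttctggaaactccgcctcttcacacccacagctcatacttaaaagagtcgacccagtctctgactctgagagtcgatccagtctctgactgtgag
Cxcl10: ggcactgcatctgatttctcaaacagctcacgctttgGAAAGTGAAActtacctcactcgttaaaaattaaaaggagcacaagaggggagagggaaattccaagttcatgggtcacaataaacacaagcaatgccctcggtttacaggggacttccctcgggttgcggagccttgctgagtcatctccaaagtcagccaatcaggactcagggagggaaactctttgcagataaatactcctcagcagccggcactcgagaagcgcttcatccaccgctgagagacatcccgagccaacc
Gbp2: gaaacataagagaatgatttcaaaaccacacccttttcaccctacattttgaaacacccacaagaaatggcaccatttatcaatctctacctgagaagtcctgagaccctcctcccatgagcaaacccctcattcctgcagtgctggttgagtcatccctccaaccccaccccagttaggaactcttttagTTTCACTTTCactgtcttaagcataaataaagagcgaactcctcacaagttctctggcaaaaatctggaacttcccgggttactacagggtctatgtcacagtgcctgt
Stat2: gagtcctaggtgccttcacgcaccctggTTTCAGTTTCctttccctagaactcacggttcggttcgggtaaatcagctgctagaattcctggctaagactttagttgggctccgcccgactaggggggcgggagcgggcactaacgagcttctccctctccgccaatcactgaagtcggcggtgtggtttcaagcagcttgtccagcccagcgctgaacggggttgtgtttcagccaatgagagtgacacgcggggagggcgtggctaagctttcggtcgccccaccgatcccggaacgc
Irf1: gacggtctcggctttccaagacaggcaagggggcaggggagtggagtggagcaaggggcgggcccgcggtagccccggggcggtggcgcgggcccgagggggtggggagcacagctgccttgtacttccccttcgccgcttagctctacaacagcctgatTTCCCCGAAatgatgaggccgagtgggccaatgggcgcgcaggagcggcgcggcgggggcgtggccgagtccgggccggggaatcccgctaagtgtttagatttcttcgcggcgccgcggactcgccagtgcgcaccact

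The Ifit1 window (chr19:34640639-34640938, plus strand) held 2 matches that began 104 and 85 bases before the start, and the Ifit3 window (chr19:34583279-34583578, plus strand) held 2 at 156 and 122 bases. The Isg15 window (chr4:156200769-156201068, minus strand) held 3 overlapping matches, the farthest beginning 78 bases before the start. The Cxcl10 window (chr5:92348840-92349139, minus strand) held 1 match at 213 bases, the Gbp2 window (chr3:142620413-142620712, plus strand) 1 at 59 bases, and the Stat2 window (chr10:128270248-128270547, plus strand) 1 at 222 bases. The Irf1 window (chr11:53769764-53770063, plus strand) held a GAS match at 90 bases and no ISRE match.

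Several of the genes are neighbours in the annotation of the same build. The Ifit genes lie in a row on the plus strand of chromosome 19, with Ifit2 at chr19:34550694-34576419, Ifit3 at chr19:34583531-34588731 and Ifit1 at chr19:34640871-34650009. Gbp7 (chr3:142530342-142550149), Gbp3 (chr3:142560026-142573209) and Gbp2 (chr3:142620602-142638008) lie together in the same way. Cxcl9 (chr5:92321347-92328079) and Cxcl10 (chr5:92346638-92348889) are adjacent on the minus strand, and Oasl2 (chr5:114896936-114912234) and Oasl1 (chr5:114923240-114937915) are adjacent on the plus strand. Of the other genes called below, Ifi44 is at chr3:151730922-151749960, Usp18 at chr6:121245906-121270917 and Irf7 at chr7:141262706-141266481. Counts are of whole genes. Irf9 overlaps Rnf31 and Igtp overlaps Irgm2 on the same strand, so reads in the overlaps are uncertain, and Mx2 is annotated as a polymorphic pseudogene.

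Total counts ranged from 12002317 to 99284626 per library, the highest being WT CDDO-Me 1. Nfe2l2, which encodes Nrf2, was at 36.6 to 74.9 CPM (read counts scaled to the TMM-adjusted library total) over the 8 WT libraries. It was at 15.7 to 21.0 CPM over the KO CDDO-Me libraries and at 51.7, 35.5, 19.9 and 21.3 in KO untreated 1 to 4. The library labelled KO untreated 1 thus lay within the WT range, and KO untreated 2 lay just below it. Reads assigned to sense-intronic and unconfirmed genes were 0.673% to 0.967% of counts in WT DMSO 1 and 2 and KO untreated 1 and 2 and 0.186% to 0.407% in the other 12 libraries. Reads assigned to ribosomal RNA genes were 0.00595% of counts in WT DMSO 4 and 0.173% to 0.634% in WT DMSO 1 to 3, and 0.0105% in WT CDDO-Me 1 and 0.194% to 0.511% in WT CDDO-Me 2 to 4. In the 8 KO libraries they were at most 0.0368%, so this share also separates the KO libraries from 6 of the 8 WT libraries, and its part in the results below was not tested. Hepatocyte markers were abundant in every library, with 6 genes summing to 45947 to 114674 CPM.

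One library, WT DMSO 4, stood apart in the interferon-stimulated genes. Its level was the highest of the 16 libraries for 28 of the 31 genes, the exceptions being Oas2, Bst2 and Ifi27. For 21 of 31 it was at least 2 times the highest of the other 15 libraries, where 2.13% of all genes tested reached that mark. The 31 genes together took 0.460% of its counts, against 0.0636% to 0.169% in the other libraries. On the log2 scale, the median gene of the 31 lay 3.31 above its own median over the 16 libraries in WT DMSO 4, where the median of all genes was -0.01. In WT DMSO 1 to 3 that median deviation was -0.23, -0.20 and -0.31. Every result that uses WT DMSO, or the spread estimated with it, is therefore given with and without this library. The library was seen to differ before the genes were listed, so these values are a description and carry no test. Fits without it rest on a choice made on these same genes, and their adjusted p are conditional on that choice.

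**Figure D1:**
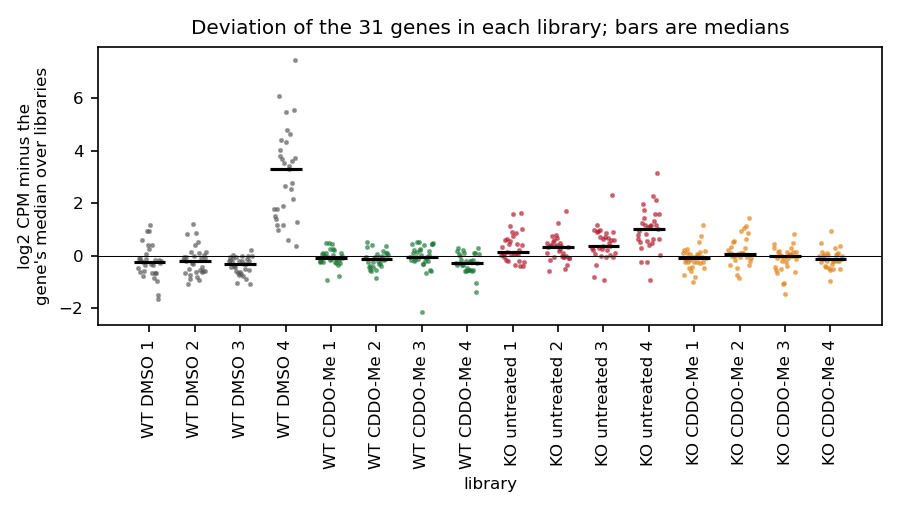
Each point is 1 of the 31 genes in 1 library, as log2 CPM minus the median of that gene over the 16 libraries, and bars are the medians of the 31. WT DMSO 4 has a median of 3.31, the KO untreated libraries have medians of 0.13, 0.34, 0.37 and 0.97, and the other 11 lie between -0.31 and 0.05.

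Per length, over the 15 other libraries, the median level ran from 0.472 FPKM (fragment counts divided by gene length and library total) for Mx1 to 81.2 for Iigp1 and 89.0 for Bst2. Bst2, which tethers budding virions to the membrane, and Iigp1, a GTPase that attacks the vacuoles of intracellular parasites, were thus the best expressed members. The genes also differed in how far they ranged among those 15 libraries. The highest CPM was 25.1 times the lowest for Cxcl9 and 13.2 times for Mx1, but 1.45 times for Irf9 and 1.62 times for Ifi35.

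**Figure D2:**
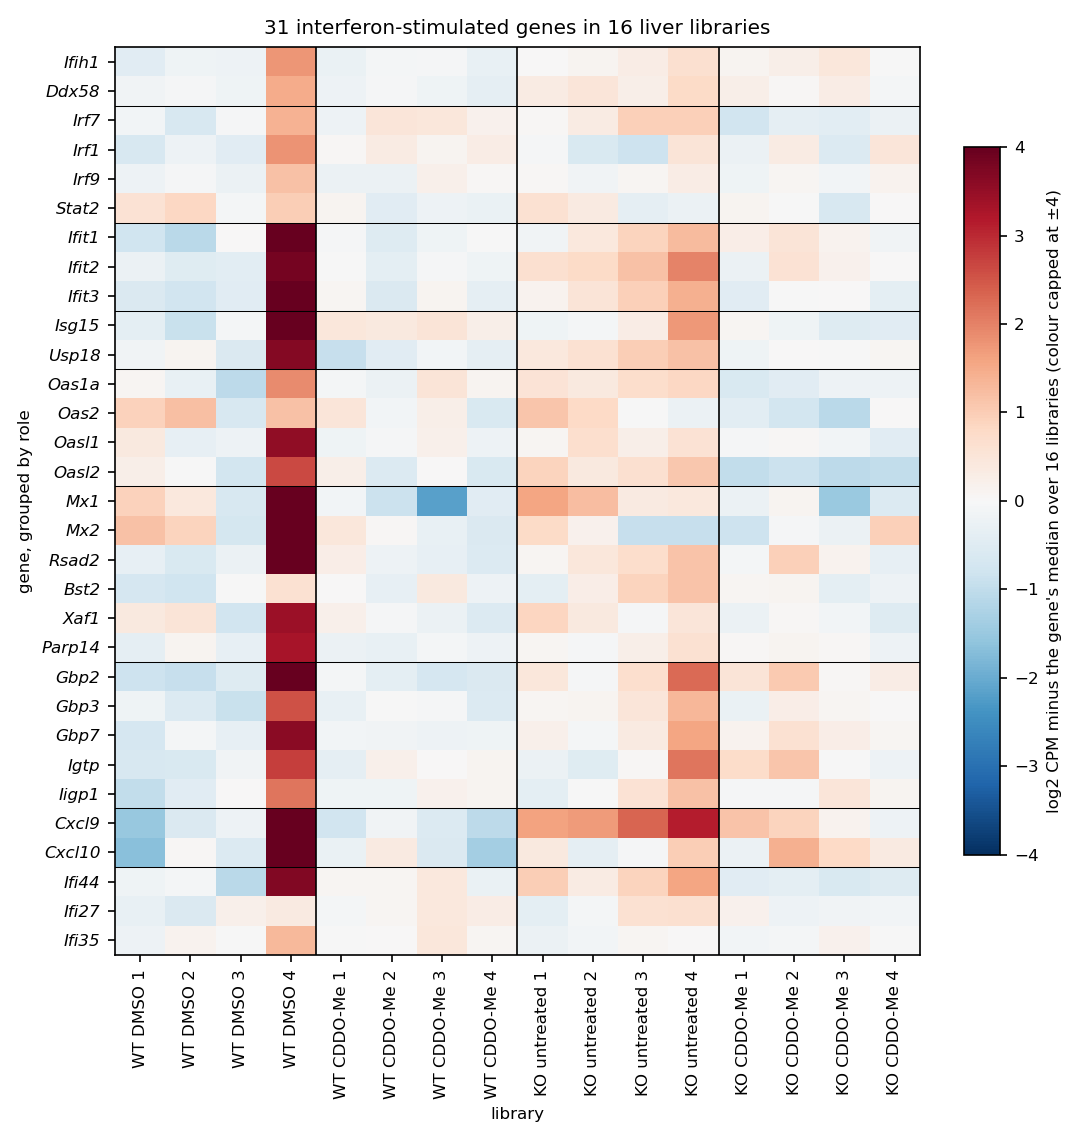
Colour gives log2 CPM minus the median of each gene over 16 libraries, with genes as rows grouped by role and libraries as columns grouped by treatment. The column of WT DMSO 4 is high in every role, KO untreated 4 is highest of the remaining 15 libraries for 22 of 31 genes, and Mx2, Stat2 and Oas2 follow a different order from the rest.

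The chemokines, which draw T cells and NK cells through the receptor Cxcr3, were farthest above the other controls in WT DMSO 4. Cxcl10 was at 0.750, 2.43, 1.61 and 420.1 CPM in WT DMSO 1 to 4, so that WT DMSO 4 was 263 times the mean of the other 3. Over the other 15 libraries Cxcl10 did not exceed 6.37 CPM. Cxcl9 was at 2.80, 5.34, 6.96 and 374 CPM, a ratio of 74.3. Cxcl9 also differed among the other groups, at 24.5, 25.9, 40.2 and 70.1 CPM in KO untreated 1 to 4.

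In the Ifit family, whose proteins bind viral RNA and block its translation, Ifit1 was at 3.41, 2.78, 5.95 and 405 CPM in WT DMSO 1 to 4, a ratio of 100.0. Ifit2 and Ifit3 had ratios of 18.2 and 24.1. In the ISG15 system, Isg15, the ubiquitin-like modifier, was at 3.34, 2.36, 4.15 and 91.7 CPM, a ratio of 27.9, and Usp18, which removes it from proteins and inhibits the type I receptor, had a ratio of 14.3. All 5 genes were at least 3.57 times the highest of the other 15 libraries.

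Among the antiviral effectors, Rsad2, which makes a chain-terminating nucleotide, had a ratio of 35.6 and Mx1 a ratio of 34.7. Mx2, Parp14 and Xaf1 had ratios of 12.6, 11.2 and 9.71, and Bst2 of 2.06. The oligoadenylate synthetase family, whose active members make the activator of RNase L, ran from 11.7 for Oasl1 through 6.70 for Oasl2 and 4.72 for Oas1a to 1.39 for Oas2. Oas2 was the lowest of all 31.

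The GTPases, which act on pathogen vacuoles, included Gbp2 at 3.00, 2.84, 3.75 and 134 CPM in WT DMSO 1 to 4, a ratio of 42.0. Gbp7, Igtp, Gbp3 and Iigp1 had ratios of 15.3, 9.18, 8.30 and 5.90. The sensors of viral RNA were nearer the other controls, with ratios of 4.10 for Ifih1 (138 CPM in WT DMSO 4) and 3.07 for Ddx58. The transcription factors had ratios of 4.62 for Irf1, 3.09 for Irf7, 2.54 for Irf9 and 1.39 for Stat2. Stat2 was at 119, 141, 74.1 and 155 CPM, and so did not separate WT DMSO 4 from the other controls. Over the 31 genes the median ratio was 9.71, 15 genes had a ratio of at least 10, and the median over all genes tested was 0.964. The 14 genes whose promoter window held the ISRE letters had ratios of 1.39 to 263 with a median of 12.2, and the 10 whose windows lacked them had ratios of 2.47 to 74.3 with a median of 8.21, so the ranges overlapped.

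**Figure D3:**
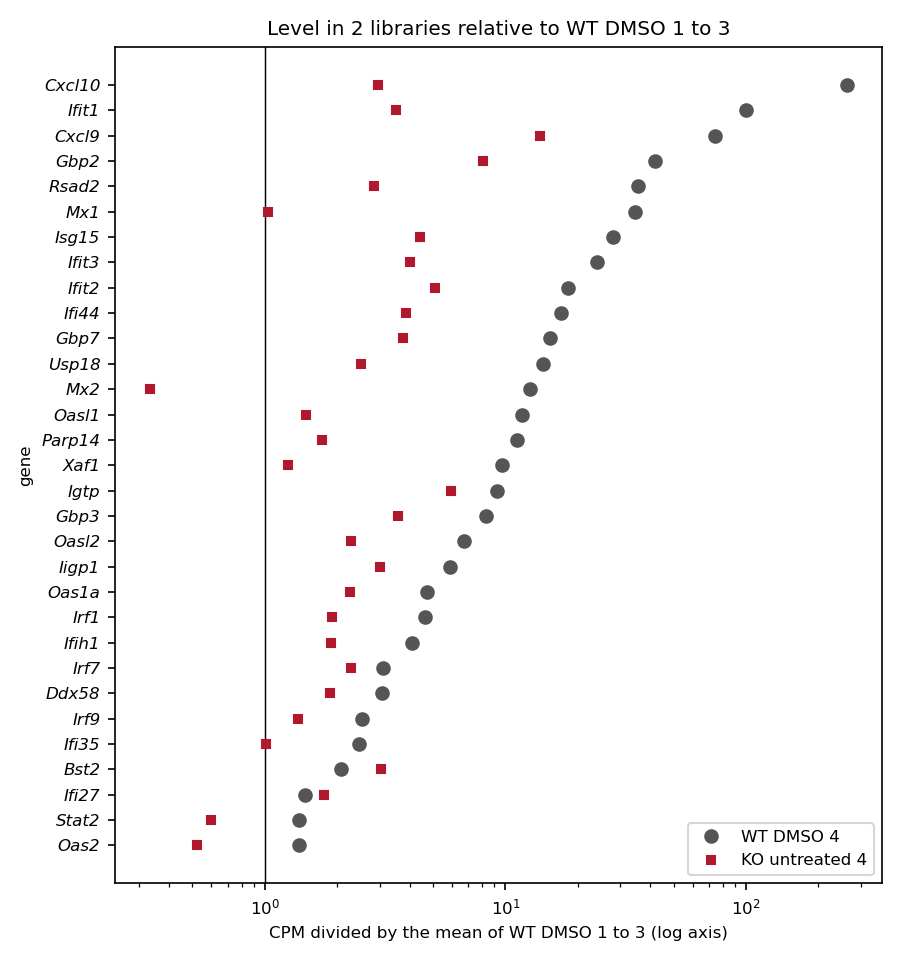
The CPM of WT DMSO 4 (circles) and KO untreated 4 (squares) is divided by the mean of WT DMSO 1 to 3 for each gene, on a log axis with a line at 1. WT DMSO 4 runs from 1.39 for Oas2 to 263 for Cxcl10, and KO untreated 4 is nearer 1 for most genes, with its highest ratio of 13.9 at Cxcl9.

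For the effect of the drug in WT liver, 0 of the 31 genes passed the test in WT CDDO-Me against WT DMSO over 16 libraries (quasi-likelihood test of edgeR, threshold of 0.05 on the Benjamini-Hochberg adjusted p over all genes). Of all genes, 0.728% passed. At an unadjusted p under 0.05, 19 of 31 differed, all lower, as did 15.3% of all genes in either direction. DESeq2 called 2 of 31, and 2.92% of all genes. The median log2 fold change of the 31 was -1.85, against -0.02 over all genes, and 29 of 31 were negative. When WT DMSO 4 was left out the median was 0.23, 21 of 31 were positive, 2 of 31 had an unadjusted p under 0.05, against 23.0% of all genes, and again 0 passed, where 1.34% of all genes did. On the log2(FPKM + 1) scale with limma, the median over 16 libraries was -0.54. The direction of the list thus rests on WT DMSO 4. With WT DMSO 4 kept, leaving out WT DMSO 3 gave 3 genes called (Mx1, Mx2 and Cxcl10), all lower, where 1.23% of all genes were called. Leaving out the 4 libraries with a high intronic share gave 7, all lower, where 0.756% of all genes were.

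The chemokine Cxcl10 shows how far 1 library moved the estimate. It was at 1.95, 3.05, 1.58 and 0.918 CPM in WT CDDO-Me 1 to 4, within the range of WT DMSO 1 to 3 except for WT CDDO-Me 2. Its log2 fold change was -5.80 ± 1.54 (standard error, adjusted p = 0.102 by edgeR) with WT DMSO 4 and 0.25 ± 0.49 (adjusted p = 0.753) without it. Ifit1 went from -4.31 ± 1.23 (adjusted p = 0.128) to 0.38 ± 0.32 (adjusted p = 0.451), and Gbp2 from -3.14 ± 1.03 (adjusted p = 0.188) to 0.36 ± 0.45 (adjusted p = 0.617).

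Isg15 was at 5.99, 5.73, 6.24 and 5.05 CPM in WT CDDO-Me 1 to 4, each above WT DMSO 1 to 3. Its log2 fold change was -2.15 ± 0.89 (adjusted p = 0.283 by edgeR) and, without WT DMSO 4, 0.81 ± 0.40 (adjusted p = 0.227). Irf1, a factor induced directly by interferon gamma, was at 30.9, 37.4, 32.3 and 36.7 CPM, also above WT DMSO 1 to 3 (19.3, 25.9 and 21.8), with values of -0.31 ± 0.45 (adjusted p = 0.73) and 0.62 ± 0.29 (adjusted p = 0.212). These were the only 2 of the 31 whose WT CDDO-Me libraries all lay above WT DMSO 1 to 3 in CPM, a position held by 8.42% of all genes, and neither passed the test. In FPKM both overlapped. Isg15 was at 4.97 in WT CDDO-Me 4 and 5.18 in WT DMSO 1, and Irf1 at 6.87 in WT CDDO-Me 4 and 7.84 in WT DMSO 2.

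None of the other regulators of the panel passed either. Irf7, the factor that amplifies interferon production, had a log2 fold change of -0.12 ± 0.34 (adjusted p = 0.873 by edgeR) and, without WT DMSO 4, 0.49 ± 0.24 (adjusted p = 0.234). Ifih1 had -0.73 ± 0.37 (adjusted p = 0.35) and 0.10 ± 0.16 (adjusted p = 0.701). Stat2 was negative in both fits, at -0.82 ± 0.25 (adjusted p = 0.162) and -0.68 ± 0.26 (adjusted p = 0.158). Stat2 was at 84.8, 58.3, 68.9 and 65.6 CPM in WT CDDO-Me, and the 2 controls with a high intronic share, WT DMSO 1 and 2, were at 119 and 141 against 74.1 in WT DMSO 3. The part of the intronic share in this difference was not tested.

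**Figure D4:**
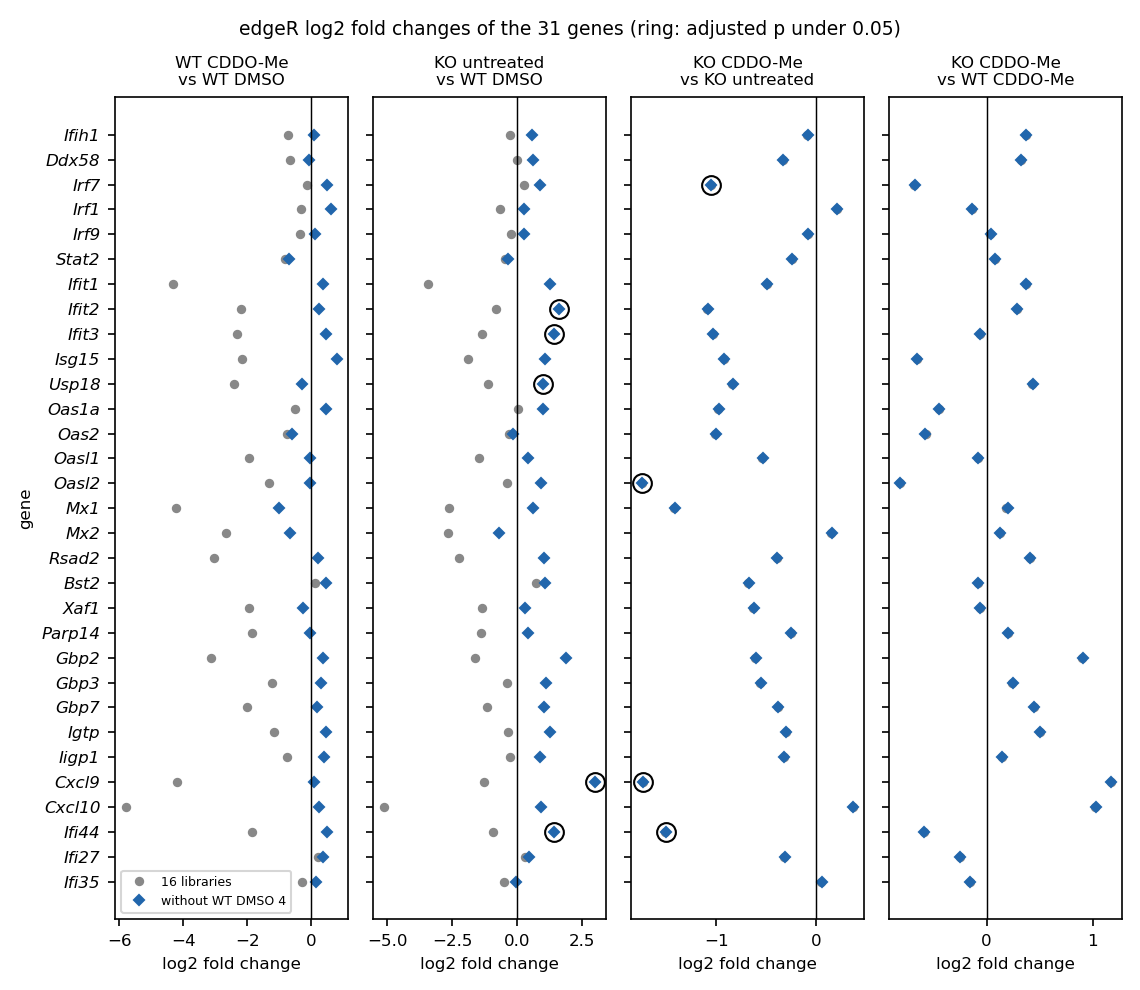
Log2 fold changes of the 31 genes in the 4 pairwise comparisons, from edgeR over 16 libraries (circles) and without WT DMSO 4 (diamonds), with rings around genes at an adjusted p under 0.05. Most genes are below 0 in both comparisons with WT DMSO over 16 libraries and move above 0 without WT DMSO 4, whereas in the comparisons without that group the estimates nearly coincide and only the calls differ.

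KO untreated against WT DMSO asks how the genes stand in undrugged liver without Nrf2. Over 16 libraries 0 of 31 genes passed the edgeR test, where 1.38% of all genes did. At an unadjusted p under 0.05, 10 differed (9 lower and 1 higher), against 14.1% of all genes, and DESeq2 called 1, against 4.08% of all genes. With WT DMSO 4 left out the sign turned and 5 of the 31 were called higher: Cxcl9, Ifit2, Ifit3, Ifi44 and Usp18, where 0.448% of all genes were. For these 5 genes the library left out was above every KO untreated library. Leaving it out lowers the WT mean and the spread, so these calls depend on that choice and are no independent test. The median log2 fold change of the 31 was -0.80 with WT DMSO 4 and 0.89 without it, against 0.00 and 0.02 over all genes. The direction over 16 libraries also turned with the scale: limma gave a median of 0.0545 on log2(FPKM + 1), with 17 of 31 positive, and 0.18 on log2(FPKM + 0.1), with 18 positive, where edgeR had 4 positive. Without WT DMSO 4, 27 of 31 were positive and 20 had an unadjusted p under 0.05, all higher, against 13.4% of all genes in either direction.

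Cxcl9 had the largest difference of the 31 when WT DMSO 4 was left out. Its 4 KO untreated libraries, at 24.5 to 70.1 CPM, all lay above WT DMSO 1 to 3, at 2.80 to 6.96, and below WT DMSO 4. Its log2 fold change was -1.28 ± 1.05 (adjusted p = 0.679 by edgeR) over 16 libraries and 3.00 ± 0.45 (adjusted p = 0.00414), or 7.99-fold, without WT DMSO 4. It passed in each of the 15 fits that left out 1 further library.

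Ifit2 was at 6.25, 6.80, 9.06 and 15.8 CPM in KO untreated 1 to 4 and at 3.41, 2.84 and 3.01 in WT DMSO 1 to 3. Its log2 fold change without WT DMSO 4 was 1.62 ± 0.30 (adjusted p = 0.0149 by edgeR). Ifit3 was at 8.58, 11.1, 15.1 and 21.0 CPM against 5.25, 4.65 and 5.75, a log2 fold change of 1.42 ± 0.28 (adjusted p = 0.0198). Reads of Ifit3 can be shared with its near-identical neighbour Ifit3b, which was itself called higher (1.54 ± 0.30, adjusted p = 0.0171), so the split between them is uncertain. Neither group overlapped the other for either gene.

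Ifi44, a cytoplasmic protein induced by type I interferon, was at 6.45, 4.10, 6.04 and 9.63 CPM in KO untreated 1 to 4 and at 2.87, 3.05 and 1.54 in WT DMSO 1 to 3. Its log2 fold change without WT DMSO 4 was 1.40 ± 0.30 (adjusted p = 0.0293 by edgeR). Usp18 was at 10.5, 11.8, 15.4 and 17.4 CPM against 7.09, 8.46 and 5.22, a log2 fold change of 0.99 ± 0.23 (adjusted p = 0.0428). Over 16 libraries the 4 genes Ifit2, Ifit3, Ifi44 and Usp18 were at -0.80 ± 0.73, -1.35 ± 0.80, -0.94 ± 0.72 and -1.13 ± 0.67, with adjusted p of 0.725, 0.507, 0.65 and 0.512. Of the 15 fits without a further library, Ifit2 and Ifit3 passed in 13 each, Ifi44 in 10 and Usp18 in 3.

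Of the other regulators and effectors, the following log2 fold changes missed the threshold without WT DMSO 4 (edgeR). Irf7 was at 0.86 ± 0.24 (adjusted p = 0.105), with 33.2, 41.0, 63.4 and 62.6 CPM in KO untreated 1 to 4 against 30.3, 20.7 and 31.6 in WT DMSO 1 to 3. Ifih1 was at 0.55 ± 0.16 (adjusted p = 0.121), Irf1 at 0.27 ± 0.28 (adjusted p = 0.739) and Stat2 at -0.35 ± 0.26 (adjusted p = 0.608). Ifit1 was at 1.25 ± 0.32 (adjusted p = 0.0726), Isg15 at 1.08 ± 0.40 (adjusted p = 0.231), Gbp2 at 1.87 ± 0.46 (adjusted p = 0.0588) and Cxcl10 at 0.91 ± 0.49 (adjusted p = 0.446). With WT DMSO 4 these 8 genes were at 0.25, -0.28, -0.66, -0.49, -3.44, -1.88, -1.63 and -5.15 in the same order, with adjusted p of 0.848, 0.842, 0.58, 0.409, 0.166, 0.342, 0.504 and 0.102.

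For 14 of the 31 genes every KO untreated library lay above WT DMSO 1 to 3 (Ifit2, Ifit3, Irf7, Oas1a, Oasl2, Rsad2, Usp18, Ifi44, Ifih1, Ddx58, Gbp2, Gbp3, Gbp7 and Cxcl9), as did 4.58% of all genes. For each of these 14, WT DMSO 4 lay above every KO untreated library, so with it none of them was separate. Its omission was chosen on these same genes, unlike for the rest of the genes, so the 2 shares are no test. The 4 KO untreated libraries were not alike. KO untreated 4 was at a median of 2.28 times the mean of WT DMSO 1 to 3 over the 31 genes, with 13.9 times for Cxcl9, 8.08 for Gbp2 and 5.97 for Igtp. The mean of the other 3 was at a median of 1.45 times, and it was above WT DMSO 1 to 3 for 27 genes and below for 4. Leaving out KO untreated 4 as well as WT DMSO 4 left a median log2 fold change of 0.54 and 3 genes called, all higher. Leaving out the library labelled KO untreated 1 as well as WT DMSO 4 gave 11 genes called. That library had an Nfe2l2 level within the WT range and also the highest intronic share, 0.967%. The part of either in this count was not tested. Leaving out WT DMSO 1 or WT DMSO 2 as well as WT DMSO 4 gave 1, and leaving out KO untreated 3 gave 3, all higher. The share of all genes called in these fits is not given here, so the counts show only how the calls moved.

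KO CDDO-Me against KO untreated uses no WT library for its difference, only for its spread. In it, 4 genes fell when WT DMSO 4 was left out of the spread: Oasl2, Ifi44, Irf7 and Cxcl9, where 0.368% of all genes were called lower. Over 16 libraries 0 of 31 passed by edgeR, where 0.130% of all genes did, 4 differed at an unadjusted p under 0.05, all lower, against 15.8% of all genes, and DESeq2 called 1, against 1.85% of all genes. The median log2 fold change of the 31 was -0.54 in both fits, with 27 of 31 negative, against -0.04 and -0.05 over all genes. At an unadjusted p under 0.05, 16 of 31 were lower and 0 higher in the fit without WT DMSO 4, against 20.6% of all genes in either direction.

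Oasl2, a synthetase-like protein, was at 9.35, 6.61, 7.79 and 10.5 CPM in KO untreated 1 to 4 and at 2.51, 2.73, 2.42 and 2.54 in KO CDDO-Me 1 to 4. The treated libraries lay close together and below every other library of the series. The log2 fold change was -1.74 ± 0.24 (adjusted p = 0.0048 by edgeR) without WT DMSO 4 and -1.75 ± 0.53 (adjusted p = 0.205) with it. It passed in each of the 15 fits without a further library.

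Ifi44 was at 2.35, 2.49, 2.103 and 2.27 CPM in KO CDDO-Me 1 to 4, below the 4.10 to 9.63 of KO untreated. The log2 fold change was -1.51 ± 0.26 (adjusted p = 0.0168 by edgeR) without WT DMSO 4 and -1.51 ± 0.75 (adjusted p = 0.332) with it. Irf7 was at 19.3, 25.1, 24.2 and 27.7 CPM, below the 33.2 to 63.4 of KO untreated, with log2 fold changes of -1.05 ± 0.22 (adjusted p = 0.0439) and -1.06 ± 0.35 (adjusted p = 0.225). Cxcl9 was at 17.8, 14.7, 8.79 and 6.98 CPM, below the 24.5 to 70.1 of KO untreated, with -1.73 ± 0.37 (adjusted p = 0.0439) and -1.74 ± 1.07 (adjusted p = 0.399). For all 4 genes the groups did not overlap. The calls of Irf7 and Cxcl9 were near the threshold and held in 6 and 5 of the 15 fits without a further library, and that of Ifi44 in 13. In those fits 1 gene was called without KO CDDO-Me 1 or 2, 2 without KO CDDO-Me 3 or 4, KO untreated 2 or any of WT CDDO-Me 2 to 4, and 6 without WT DMSO 3 or KO untreated 1, all lower. The share of all genes called in those fits is not given here, so these counts show only how the calls moved.

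**Figure D5:**
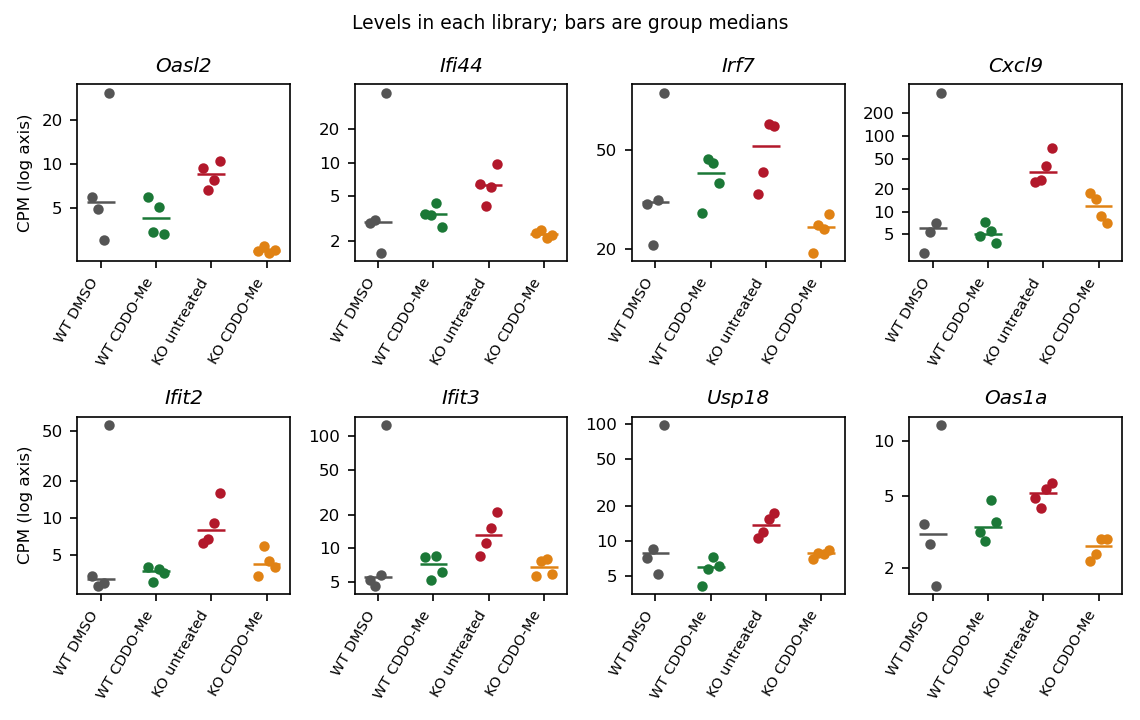
CPM of Oasl2, Ifi44, Irf7, Cxcl9, Ifit2, Ifit3, Usp18 and Oas1a in each library on a log axis, with points for libraries and bars for group medians. These 8 of the 31 genes are shown because, for each of them, the KO untreated libraries lie above WT DMSO 1 to 3 and above every KO CDDO-Me library, and 1 WT DMSO library, WT DMSO 4, lies above all of them.

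The remaining panel genes did not pass in either fit of KO CDDO-Me against KO untreated (edgeR). Without WT DMSO 4, Isg15 was at -0.92 ± 0.35 (adjusted p = 0.175), Ifit1 at -0.49 ± 0.28 (adjusted p = 0.313) and Gbp2 at -0.61 ± 0.39 (adjusted p = 0.356). Cxcl10 was at 0.37 ± 0.42 (adjusted p = 0.599), Irf1 at 0.21 ± 0.26 (adjusted p = 0.634), Stat2 at -0.24 ± 0.24 (adjusted p = 0.555) and Ifih1 at -0.09 ± 0.15 (adjusted p = 0.748). With it, each fold change was nearly the same, and the lowest adjusted p of the 7 was 0.572.

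For 10 of 31 genes every KO CDDO-Me library lay below every KO untreated library (Ifit2, Ifit3, Irf7, Oas1a, Oasl1, Oasl2, Mx1, Usp18, Ifi44 and Cxcl9), as did 4.50% of all genes. A group of 8 genes, Ifit2, Ifit3, Irf7, Oas1a, Oasl2, Usp18, Ifi44 and Cxcl9, were in both of these sets, as were 0.913% of all genes, and the 2 comparisons share the KO untreated libraries. Without both WT DMSO 4 and KO untreated 4 the median log2 fold change was -0.24 with 4 genes called, all lower. The share of all genes called in that fit is not given here.

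KO CDDO-Me against WT CDDO-Me compares the genotypes under the same treatment and uses no control library for its difference. No gene of the 31 passed in either fit by edgeR, where 3.30% of all genes passed over 16 libraries and 5.03% without WT DMSO 4. At an unadjusted p under 0.05 there were 0 over 16 libraries, against 17.1% of all genes, and 8 without WT DMSO 4 (5 higher and 3 lower), against 20.1%. DESeq2 called 0 over 16 libraries, against 6.98% of all genes. A fit of these 2 groups alone called 7, with 4 higher and 3 lower, where 13.5% of all genes were called. The median log2 fold change was 0.13 and 0.12. Irf7 was at -0.68 ± 0.22 (adjusted p = 0.092) and Oasl2 at -0.82 ± 0.24 (adjusted p = 0.0638) without WT DMSO 4.

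In CPM, the libraries of these 2 groups were separate for 7 of the 31 genes. Isg15, Irf7, Oasl2 and Ifi44 were lower in every KO CDDO-Me library, for example Isg15 at 4.53, 3.88, 3.03 and 3.20 CPM against 5.99, 5.73, 6.24 and 5.05. Ifih1, Gbp2 and Gbp7 were higher in every KO CDDO-Me library, for example Gbp2 at 7.69, 11.1, 5.51 and 6.53 CPM against 5.08, 4.09, 3.399 and 3.58. Over all genes 9.25% were separate in the higher and 9.82% in the lower direction. The 3 higher and 4 lower of the 31 are near those shares. In FPKM, Ifih1 and Gbp7 stayed separate, whereas Isg15, Irf7, Oasl2, Ifi44 and Gbp2 overlapped between the groups. Without WT DMSO 4, Isg15 was at -0.66 ± 0.35 (adjusted p = 0.322 by edgeR), Gbp2 at 0.91 ± 0.40 (adjusted p = 0.216), Ifih1 at 0.37 ± 0.15 (adjusted p = 0.175) and Cxcl10 at 1.03 ± 0.43 (adjusted p = 0.189). Ifit1, Irf1 and Stat2 were at 0.38 ± 0.29, -0.14 ± 0.26 and 0.08 ± 0.24, the lowest adjusted p of the 3 being 0.517. Over 16 libraries the lowest adjusted p of the 31 was 0.338, at Irf7.

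The interaction, which subtracts the drug response of KO liver from that of WT liver, was called for 0 of 31 genes by edgeR in both fits, where 0.130% of all genes passed over 16 libraries and 0.196% without WT DMSO 4. At an unadjusted p under 0.05 there were 3 over 16 libraries, against 8.53% of all genes, and 10 without WT DMSO 4, against 8.74%. DESeq2 called 0 over 16 libraries, against 1.11% of all genes. The median was -0.87 with WT DMSO 4 and 0.62 without it, against 0.01 and 0.03 over all genes, and limma on log2(FPKM + 1) gave -0.12 over 16 libraries. Without it the lowest adjusted p were 0.0649 for Ifi44 (2.00 ± 0.40), 0.0703 for Oasl2 (1.71 ± 0.36) and 0.0764 for Irf7 (1.54 ± 0.33). A different response of these genes to the drug in the 2 genotypes was thus not shown.

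Other genes of the pathway came from lists chosen with earlier results of these data known. Of 19 interferon ligands and receptors, 10 were in the table and 5 passed the filter on low counts, and 0 of the 5 were at least 2 times the highest other library in WT DMSO 4. Ifng had a count in 5 libraries, at most 2, and none in WT DMSO 4, and Ifnk, Ifna4 and Ifna11 had no count there either. The receptor chain Ifnar1 was at 37.8, 34.2, 39.9 and 46.7 CPM in WT DMSO 1 to 4, and Ifnar2 at 21.8, 18.2, 17.3 and 43.7. The gamma receptor chain Ifngr1 was at 12.6, 16.03, 13.6 and 17.4 CPM. Ifnb1 and 8 further listed ligands and receptors were not analysed here. None of the 5 tested genes passed in any comparison in either fit.

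Of 25 sensing and signalling genes tested, 8 were at least 2 times the highest other library in WT DMSO 4, and of 80 other interferon-stimulated genes 41 were. Of all genes tested, 2.13% were. The feedback inhibitor Socs1 was at 19.5 CPM in WT DMSO 4 and at most 2.41 elsewhere.

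Without WT DMSO 4, 4 of 80 other interferon-stimulated genes rose in KO untreated against WT DMSO: Ccl5, Ifit3b, Samd9l and Ifi209. Of all genes, 0.448% were called higher. Ccl5, a chemokine of T cells and NK cells, also rose over 16 libraries, with a log2 fold change of 2.50 ± 0.35 (adjusted p = 0.00206 by edgeR). Ccl5 was at 1.12 to 1.92 CPM in KO untreated and at 0.205, 0.208, 0.335 and 0.276 in WT DMSO 1 to 4, so WT DMSO 4 did not stand apart for it. These control levels rest on few reads, so the size of the change and the place of WT DMSO 4 are uncertain. In KO CDDO-Me against KO untreated without WT DMSO 4, 0.368% of all genes were called lower. Of the 80, 4 fell there (Pml, Ifi27l2a, Ccl5 and Oas3), as did 2 of the 25 signalling genes, the sensor Dhx58 and the repressor Irf2. Ifi27l2a had the largest change of these, -2.02 ± 0.40 (adjusted p = 0.0357), and Ccl5 was at -1.58 ± 0.32 (adjusted p = 0.0361). The median log2 fold change of the 80 was -0.88 over 16 libraries and -0.00684 without WT DMSO 4 in WT CDDO-Me against WT DMSO, and -0.46 and 0.43 in KO untreated against WT DMSO. In KO CDDO-Me against KO untreated it was -0.41 in both fits. The 25 signalling genes had medians of -0.38 and -0.0385, -0.23 and 0.0932, and -0.0506 and -0.048 in the same order.

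In KO CDDO-Me against WT CDDO-Me the sensor Tlr3 was higher (0.81 ± 0.21, adjusted p = 0.034 by edgeR) and Lgals3bp lower (-0.86 ± 0.21, adjusted p = 0.0292) without WT DMSO 4. The interaction was called for Oas3 in that fit (2.39 ± 0.43, adjusted p = 0.035). In WT CDDO-Me against WT DMSO, Phf11c was called lower in both fits, at -3.39 ± 0.73 (adjusted p = 0.045) and -3.72 ± 0.68 (adjusted p = 0.0137), with 196 CPM in WT DMSO 1 against 31.5, 9.70 and 14.5 in the other controls.

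Markers of other cells were read in the same libraries, and in bulk tissue fewer cells of a type cannot be told apart from less RNA per cell. The 9 monocyte and neutrophil markers summed to 35.4 CPM in WT DMSO 4, with 0 of the 9 at a count of 0, and to 1.804 to 12.3 CPM in the other 15 libraries. S100a8 was at 9.14 and S100a9 at 18.9 CPM there, against at most 2.36 and 4.89 elsewhere. The 8 Kupffer cell markers summed to 178 CPM in WT DMSO 4, the lowest of all libraries, and to 212 to 539 in the others. The 6 endothelial cell markers were also lowest there, at 224 CPM, against 243 to 383 in the others. T and NK cell markers summed to 4.18 CPM in WT DMSO 4, within the 2.16 to 6.65 of the others, with 3 of the 12 (Cd8b1, Klrd1 and Ncr1) at a count of 0. The part of these cells in the level of the 31 genes was not tested.

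In KO untreated, where Cxcl9, Ifit2, Ifit3, Ifi44 and Usp18 were high, monocyte and neutrophil markers summed to 2.51 to 5.16 CPM, against 1.804 to 2.59 in WT DMSO 1 to 3 and 3.38 to 6.08 in KO CDDO-Me. T and NK cell markers summed to 4.44 to 6.65 CPM in KO untreated, against 2.39 to 4.16 in WT DMSO 1 to 3 and 3.95 to 5.22 in KO CDDO-Me, and 0 of the 12 were at a count of 0 in any KO untreated library. Plasmacytoid dendritic cells make much of the type I interferon in viral infection, and their markers summed to 1.92 to 4.42 CPM in KO untreated libraries, against 0.468 to 1.804 in WT DMSO 1 to 3 and 1.66 to 2.51 in KO CDDO-Me. Kupffer cell markers summed to 212 to 393 CPM in KO untreated, against 213 to 222 in WT DMSO 1 to 3, 293 to 452 in KO CDDO-Me and 391 to 539 in WT CDDO-Me. In KO untreated against WT DMSO without WT DMSO 4, 8 of 8 Kupffer cell markers were positive with a median log2 fold change of 0.67, and 1 of them, Adgre1, rose (1.06 ± 0.21, adjusted p = 0.0189 by edgeR), as did the monocyte marker Ly6c2 (2.18 ± 0.51, adjusted p = 0.0487). In WT CDDO-Me against WT DMSO, Cd5l, Marco, Clec4f and Adgre1 rose over 16 libraries, and Marco and Cd5l also without WT DMSO 4. All 3 plasmacytoid dendritic cell markers tested were positive in KO untreated against WT DMSO without WT DMSO 4, with a median of 1.21, and none passed. The part of these differences in the 31 genes was not tested.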

How the data were processed

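Bulk RNA-seq of 16 mouse livers was analysed from the deposited tables. Per the labels, 1 µg of RNA per liver was depleted of ribosomal RNA, and directional libraries were read on 3 lanes as pairs of 150 bases. The build GRCm38.p5 and the tools TopHat2 2.1.0 and HTSeq 0.6.1p1, with cutadapt 1.2.1, CASAVA 1.8.2 and DESeq2, are named in the submitters' processing notes, without their roles. Whether counting used strand is not given in the sources used here. Whole-number reads per gene make up the deposited counts, made by the authors without normalization, 12002317 to 99284626 per library. The deposited FPKM values were made by the authors from those counts, gene length and library total, per the file headers, and were used for levels per length and as an alternative.

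Here edgeR 4.0.16 in R 4.3.3 was run on the counts with TMM scaling, filterByExpr and quasi-likelihood tests over all genes tested, with 1 spread shared by the 4 groups (12 residual degrees of freedom, or 11 without WT DMSO 4, where 16292 genes were tested). Calls required an adjusted p under 0.05 (Benjamini-Hochberg). CPM values use TMM-scaled library totals, and deviations use log2 CPM. Standard errors follow ± on the log2 scale. The series text gives 4 animals per group but the labels do not say that each library is a separate animal, so p-values measure the spread between these samples. Libraries of a group differed by more than sampling noise (chi-square of at least 16.7 per degree of freedom). The fit was tested on simulated data with the same spread for every gene and no outlying library, so that test does not bear on the part of WT DMSO 4. DESeq2 1.42.0, limma 3.58.1, other filters, scalings and left-out libraries were alternatives.

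The 31 genes, the pathway and marker lists and WT DMSO 4 as the library to leave out were chosen with earlier results of these data known. Fold changes were named in each comparison for a panel of 8 genes (Irf7, Irf1, Stat2, Ifih1, Isg15, Ifit1, Gbp2, Cxcl10) and for members called in either fit, and up to 4 called genes per pathway list, by smallest adjusted p. Of the signalling list, 1 gene enters the counts and medians and is not reported here. Positions, types and overlaps came from GENCODE M21 (GRCm38), which matched 33586 of 33730 gene IDs. Of the 31 genes, 9 overlap another counted gene, Irf9 with Rnf31 and Igtp with Irgm2 on the same strand, and members of the Ifit, Oas, Mx and Gbp families have near-identical copies, so their counts may be split.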

Additional observations from a re-analysis of the deposited data

Results flagged for a closer look

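Each group of 4 libraries was checked for a library whose gap to its nearest neighbour was too large a share of the group's range by Dixon's test, which chance alone passes in about 1 of 20 groups. The 31 genes move together and are not separate checks, and WT DMSO 4 was known to differ when the genes were chosen, so the counts for that library describe it and are no test. Over the 31 genes and 4 groups, 124 checks gave 31 such libraries: 26 were WT DMSO 4, 4 were KO untreated 4 and 1 was elsewhere.

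WT DMSO 4 was high, in CPM, for the chemokines Cxcl10 (420.1) and Cxcl9 (374), for Ifit1 (405), Ifit2 (56.3) and Ifit3 (126), and for Isg15 (91.7) and Usp18 (98.9). It was high for the transcription factors Irf1 (103), Irf7 (85.0) and Irf9 (74.2) and the sensors Ifih1 (138) and Ddx58 (83.8). It was high for Oasl1 (76.0), Oasl2 (30.99), Mx1 (79.0), Mx2 (246), Rsad2 (229), Xaf1 (56.5) and Parp14 (760.4). It was also high for the GTPases Gbp2 (134), Gbp3 (44.0), Gbp7 (196), Igtp (162) and Iigp1 (1171), and for Ifi44 (42.2) and Ifi35 (48.7). Its median deviation over the 31 genes was 3.31 on the log2 scale, where the nearest control was at -0.20. The receptor chain Ifnar2 (43.7 CPM) stood apart in the same library.

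KO untreated 4 was high within its group for Igtp (105 CPM, the next at 24.6), Gbp2 (25.8), Gbp7 (48.1) and Isg15 (14.4). In WT CDDO-Me, replicate 3 was high for Ifi35 (27.4 CPM) and replicate 4 for Ifngr1 (20.3 CPM).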

How the results depend on the processing

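Of 31 genes, the number called moved with the tool. Over 16 libraries DESeq2 called 2 in WT CDDO-Me vs WT DMSO, 1 in KO CDDO-Me vs KO untreated and 1 in KO untreated vs WT DMSO, and no filter on low counts gave 2, 0 and 1. Of all genes, DESeq2 called 2.92%, 1.85% and 4.08% in the same order, and with no filter 0.413%, 0.156% and 0.732% were called. Without WT DMSO 4, the counts for KO CDDO-Me vs KO untreated and KO untreated vs WT DMSO were 9 and 16 by DESeq2, 8 in each by limma after adding 1 to FPKM, 7 in each after adding 0.1, and 5 and 8 without a filter. The share of all genes called also moves with the tool and with the libraries left out, so a higher count is not by itself a result about the 31 genes. This holds for every count of this section. Where no such share is printed, a count shows only how the calls moved. Fitting only the 2 groups compared gave 7 (KO CDDO-Me vs WT CDDO-Me), with 1 in KO CDDO-Me vs KO untreated. Leaving out the 4 intron-rich libraries gave 7 in WT CDDO-Me vs WT DMSO. RLE scaling changed no count. The alternatives to the fit without WT DMSO 4 were chosen after seeing the data.

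Leaving out WT DMSO 4 with WT CDDO-Me 1 gave 3 called in KO CDDO-Me vs KO untreated and 5 in KO untreated vs WT DMSO, with medians of 0.18 (WT CDDO-Me vs WT DMSO), 0.89 in KO untreated vs WT DMSO and 0.71 in the interaction. Leaving out WT DMSO 4 with KO untreated 4, chosen after seeing the data, gave 4 and 3 called, 2 in KO CDDO-Me vs WT CDDO-Me, with medians of 0.23, 0.54, 0.42 and, for KO CDDO-Me vs KO untreated, -0.24. With limma on log2(FPKM + 1) the median over 16 libraries was -0.54 in WT CDDO-Me vs WT DMSO and 0.0545 in KO untreated vs WT DMSO (0.18 with 0.1 added), and 0.59 in the latter without WT DMSO 4.

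On the log FPKM scale, 17 of 31 genes (18 with 0.1 added) were positive in KO untreated vs WT DMSO over 16 libraries, against 4 by edgeR. Of the genes whose fold changes are named, 7 turned from lower to higher. With 1 added and with 0.1 added these were Cxcl9 at 1.14 and 1.504, Gbp2 at 0.14 and 0.38, Ifi44 at 0.0438 and 0.40, Ifih1 at 0.16 and 0.20, Ifit2 at 0.26 and 0.58, Ifit3 at 0.23 and 0.36, and Usp18 at 0.0692 and 0.18. Isg15 was at 0.25 and 0.37 in the interaction.

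Replicate numbers are shared by title, but descriptions carry different animal numbers. Deviations of 24 same-numbered pairs of libraries correlated at -0.45 to 0.48 (median 0.16, 13 over 0.1), and 7 of 16 libraries correlated best with their own number, so the numbers were not taken as pairs. With the replicate block, 0 genes were called in each comparison over 16 libraries, Irf7 (0.0131) and Irf1 (0.0152) in WT CDDO-Me vs WT DMSO and Cxcl9 (0.27) in KO untreated vs WT DMSO turned positive, and without WT DMSO 4 the block gave 8 called in KO CDDO-Me vs KO untreated and 3 (Ifit2, Ifit3 and Cxcl9) in KO untreated vs WT DMSO. Over 16 libraries the block moved the share of all genes called in KO CDDO-Me vs KO untreated from 0.130% to 0.284%. The shares with the block and without WT DMSO 4 are not given here.

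Leaving out 1 library at a time gave 0 to 3 called in WT CDDO-Me vs WT DMSO, 0 to 4 in KO CDDO-Me vs KO untreated and 0 to 5 in KO untreated vs WT DMSO. The medians ran from -2.19 to 0.23, from -0.65 to -0.24 and from -1.19 to 0.89, and from -1.32 to 0.62 for the interaction. Without WT DMSO 4, 1 further library moved the calls from 1 to 6 (KO CDDO-Me vs KO untreated, median -0.64 to -0.24) and from 1 to 11 (KO untreated vs WT DMSO, median 0.54 to 1.01). The count of 1 came without KO CDDO-Me 1 or 2 in the former and without WT DMSO 1 or 2 in the latter. The 3 called in WT CDDO-Me vs WT DMSO over 16 libraries came without WT DMSO 3, and 1 in KO untreated vs WT DMSO without WT DMSO 1 or 3, all lower. Single genes that changed sign did so without WT DMSO 4 except where another library is named below.

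In WT CDDO-Me vs WT DMSO the ranges were -6.22 to 0.25 for Cxcl10, -3.53 to 0.36 for Gbp2, -0.96 to 0.10 for Ifih1, -4.72 to 0.38 for Ifit1, -0.56 to 0.62 for Irf1, -0.35 to 0.49 for Irf7 (positive also without WT CDDO-Me 1) and -2.54 to 0.81 for Isg15. In KO untreated vs WT DMSO they were -5.57 to 0.91 for Cxcl10, -1.70 to 3.00 for Cxcl9, -2.38 to 1.87 for Gbp2, -1.31 to 1.40 for Ifi44, -0.51 to 0.55 for Ifih1, -3.86 to 1.25 for Ifit1, -1.17 to 1.62 for Ifit2, -1.72 to 1.42 for Ifit3, -0.97 to 0.27 for Irf1, -2.54 to 1.08 for Isg15 and -1.48 to 0.99 for Usp18. In the interaction they were -3.28 to 0.97 for Gbp2, -0.88 to 0.19 for Ifih1, -4.23 to 0.87 for Ifit1, -0.83 to 0.41 for Irf1 and -1.88 to 1.74 for Isg15. In KO CDDO-Me vs KO untreated, Gbp2 (-0.84 to 0.14) and Ifih1 (-0.18 to 0.0623) changed sign without KO untreated 4, and in KO CDDO-Me vs WT CDDO-Me, Irf1 (-0.31 to 0.0111) did without KO CDDO-Me 3.

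Leaving out libraries lowers the residual degrees of freedom, and the cause of the other differences between settings was not tested. Depth limits the low genes: Mx1 had under 100 counts in 13 of 16 libraries, Oas1a in 12 and Cxcl10, Isg15 and Ifi44 in 11.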
